A study of Mus musculus with 24 samples.

Results

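Bidirectional promoters of coding genes were examined in 4T1 spheroids, three-dimensional cultures of a mouse mammary carcinoma line. A divergent pair was any combination of 2 protein-coding genes of the GENCODE vM21 annotation on opposite strands that point away from each other and whose gene starts lie within 1000 bp. The rule found 754 such pairs on chromosomes 1 to 19 and X, built from 1487 of 21755 coding genes, and 3 of the pairs share their names with another pair because a gene has 2 annotated models. The peaks of 12 H3K9ac lists merged into 38586 regions, and 688 of these overlapped the stretch between the starts of 698 pairs. For comparison, 19001 coding genes had no other coding start within 1000 bp of their own, and 8071 regions overlapped the window from 250 bp before the start to the start of such a gene, called a single promoter below.

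The lists came from ChIPmentation, in which immunoprecipitated chromatin is tagged by a transposase while still on the beads, and each of 4 groups had 3 libraries. Spheroids of all groups were collected on day 5. Scramble cells, called SCR in the labels, carried a control guide that targets EGFP, which has no mouse counterpart. CPT1a KO and KAT2a KO cells carried guides against Cpt1a, whose product starts the import of long-chain fatty acids for mitochondrial oxidation, or Kat2a, which encodes a histone acetyltransferase. These 3 groups received 75 µM palmitate. The remaining group, CPT1a KO+Ac, received 5 mM acetate, and its label does not say whether palmitate was present. A figure legend of the study describes its H3K9ac comparison with and without acetate as made with palmitate in the culture. Per the study's methods, the lines were puromycin-selected and carried doxycycline-inducible Cas9, with 2 guides per targeted gene. It is not given which of these a library came from, nor whether replicates were separate cultures, so p-values measure the spread between libraries only.

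H3K9ac is acetylation of lysine 9 on histone H3. It marks nucleosomes next to active transcription starts and is written mainly by KAT2A and KAT2B. Divergent pairs share one nucleosome-depleted stretch of DNA, often a CpG island, from which both genes are transcribed in opposite directions. Many such pairs encode housekeeping proteins of DNA repair, mitochondria and translation, and the nucleosomes that carry the mark lie on the outer sides, over the first part of each gene.

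The stretches between the starts were short, with a median of 129.5 bp and quartiles of 67 and 240 bp. Those on which later results turn are printed 5′ to 3′ on the plus strand of GRCm38, the build of the lists (mm10). They hold the bases strictly between the 2 starts, so the minus-strand gene begins just before the first base and the plus-strand gene just after the last. The cells derive from BALB/c and the sequence is that of the C57BL/6J reference. Capitals mark matches on either strand to the letters of 10 promoter motifs, and overlapping matches run together. The first 5 belong to fatty acid oxidation, acetyl-CoA use and NF-kB signalling.
Hadha/Hadhb, chr5:30155163-30155247: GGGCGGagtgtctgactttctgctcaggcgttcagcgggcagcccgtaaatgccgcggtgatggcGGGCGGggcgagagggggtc
Acad10/Brap, chr5:121660515-121660562: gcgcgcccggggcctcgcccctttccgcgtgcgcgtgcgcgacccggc
Tada2a/Acaca, chr11:84129601-84129671: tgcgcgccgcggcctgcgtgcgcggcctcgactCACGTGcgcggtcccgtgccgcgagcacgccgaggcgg
Pus7l/Irak4, chr15:94543548-94543642: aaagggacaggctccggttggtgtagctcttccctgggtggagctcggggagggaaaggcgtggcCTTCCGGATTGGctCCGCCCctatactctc
Fam3a/Ikbkg, chrX:74393273-74393289: cctcctccctctcctcc

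The next 3 had clear rank differences between scramble and the other libraries, in either direction.
Mad1l1/Nudt1, chr5:140321553-140321655: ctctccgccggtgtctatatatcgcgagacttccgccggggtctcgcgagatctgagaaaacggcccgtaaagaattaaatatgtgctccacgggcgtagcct
Rps6kb1/Tubd1, chr11:86544806-86544990: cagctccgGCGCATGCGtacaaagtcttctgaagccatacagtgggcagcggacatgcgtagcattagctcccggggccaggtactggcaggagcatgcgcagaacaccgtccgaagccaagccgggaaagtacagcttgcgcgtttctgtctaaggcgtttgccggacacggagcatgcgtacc
Rnf121/Xndc1, chr7:102065470-102065510: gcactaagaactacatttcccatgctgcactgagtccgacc

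The last 3 show the range of H3K9ac strength, from the pair with the lowest mean rank to a ribosomal and a histone gene pair near the top.
Ifit1bl2/Ifit1, chr19:34640744-34640870: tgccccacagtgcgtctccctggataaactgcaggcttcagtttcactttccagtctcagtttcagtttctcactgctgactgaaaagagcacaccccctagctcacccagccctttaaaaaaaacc
Rpl9/Lias, chr5:65391445-65391496: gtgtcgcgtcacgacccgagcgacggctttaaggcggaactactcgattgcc
Bola1/Hist2h2ab, chr3:96219710-96219864: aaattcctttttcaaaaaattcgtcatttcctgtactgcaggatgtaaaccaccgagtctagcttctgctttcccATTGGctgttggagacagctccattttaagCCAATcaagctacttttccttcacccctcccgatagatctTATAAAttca

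These examples differ in composition. The stretch of Hadha/Hadhb, the genes of both subunits of the mitochondrial trifunctional protein, holds 2 GC boxes in 85 bases at 69.4% GC. Tada2a/Acaca holds an E-box at 81.7% GC, Rps6kb1/Tubd1 an NRF1 match, and Pus7l/Irak4 an ETS match next to an NF-Y match and a GC box. The interferon-induced pair Ifit1bl2/Ifit1 has an observed to expected CpG ratio of 0.148 and none of the 10 motifs. Bola1/Hist2h2ab holds 2 NF-Y matches and a TATA box at 40.6% GC.

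Over all pairs, windows of 300 bp centred between the starts had a median GC content of 62.3% and a median CpG ratio of 0.850, against 54.0% and 0.462 in the 19001 single promoters, whose windows ran from 250 bp before to 50 bp after the start. The difference was smaller among promoters with H3K9ac. For pairs and single promoters with a region called in all 12 lists, the medians were 62.7% against 60.3% GC and 0.862 against 0.772. The ETS letters CCGGAAG, bound by GABPA and its relatives, occurred in 28.0% of the pairs and 9.08% of the single promoters, and in 30.1% and 18.4% of those called in all 12 lists. The YY1 letters AAGATGGCG occurred in 6.36% of the pairs and 2.94% of the single promoters called in all 12. The TATA box, TATAAA, went the other way, with 4.34% and 6.80%. The GC box GGGCGG was in 69.7% and 66.6%, NF-Y letters CCAAT in 44.8% and 39.5%, and NRF1 letters GCGCATGCG in 5.06% and 4.09%. Shares of the E-box CACGTG were 11.3% and 11.01%, those of the CRE TGACGTCA 4.48% and 3.87%, those of ZNF143 letters ACTACAATT 0.867% and 0.812%, and those of AP-1 letters TGANTCA 3.32% and 4.43%. Both strands were searched. A match describes letters only, and the counts were not tested.

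**Figure D1:**
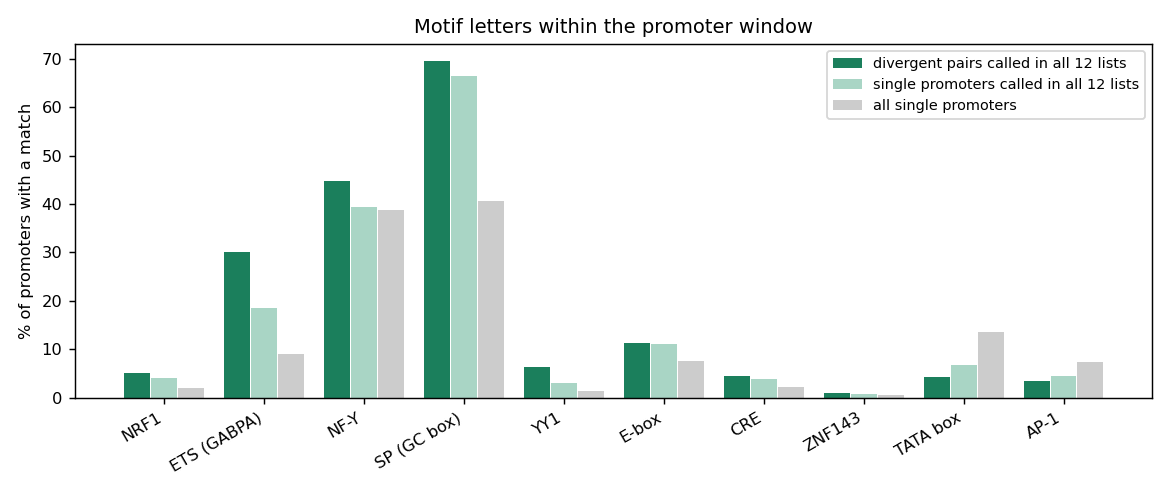
Share of promoters (%) with at least 1 match to each of 10 motifs within a 300 bp window, for 692 divergent pairs and 7267 single promoters called in all 12 lists and for all 19001 single promoters. The ETS bars stand at 30.1, 18.4 and 9.08%, and the TATA bars at 4.34, 6.80 and 13.6%.

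The lists held 16212 to 34370 peaks. Read depth is not in the files, but the mean coverage at which a list was called could be recovered from its fold enrichments and p-values under the formulas of MACS2. It was 1.87 to 2.52 in scramble and 0.554 to 1.91 in the other 9 libraries. Scramble lists were the longest (32279 ± 2741 peaks, SD, n = 3) with the narrowest peaks (median width 630 ± 51.3 bp), against 20245 ± 3724, 23205 ± 1248 and 23548 ± 777 peaks and widths of 1054 ± 83.8, 902 ± 84.0 and 994 ± 76.4 bp in CPT1a KO, CPT1a KO+Ac and KAT2a KO. The labels give no batch, so batch and group cannot be told apart. Of 6 epithelial and mammary marker promoters, Krt8, Krt18, Epcam, Cdh1 and Cldn4 had a peak in 12 of 12 libraries and Krt19 in 4. None of 8 markers of leukocytes, endothelium, liver, neurons or heart had one in any library. Cpt1a and Kat2a are in no divergent pair, and the promoters of both had a peak in all 12 libraries, which does not check the knockouts.

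Divergent pairs were marked almost throughout. Of the 688 regions over pairs, 681 were called in all 12 libraries, where the background over all 38586 regions was 31.4%. Single promoters gave 7305 of 8071 regions. These regions belonged to 692 pairs, 6 further pairs had a region in some libraries, and 56 pairs had none. The partly called pairs include Spaca9/Ak8 (9 of 12 libraries), Sobp/9030612E09Rik and Amdhd1/Ccdc38 (7 each), Il17rb/Chdh (4) and Lrrc74b/P2rx6 (1). Counted this way, a pair had a region over its stretch called in every library or in none in 748 of 754 cases. A called region may have its peak beside the stretch. The stretch itself was under a peak in 12 of 12 libraries for 453 pairs. No pair was called in 3 of 3 scramble libraries and at most 1 other, or in no scramble library and at least 8 others.

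The 56 pairs without a region over the stretch may still hold peaks over their genes beside it. These pairs were of several kinds. They include Col4a4/Col4a3, the basement membrane collagens of kidney and eye, Kirrel2/Nphs1 of the kidney filter, Pecam1/Milr1 of endothelium and mast cells, and the germ cell genes of Smc1b/Ribc2 and Hist1h2ba/Hist1h2aa, but also Slc27a5/Trim28, Ccdc151/Prkcsh and Ddx25/Pus3, each with a gene of broad expression. Both imprinted pairs Sgce/Peg10 and Peg3/Usp29 were also among them. These examples were picked after the values were seen, apart from Col4a4/Col4a3, which is on the list of classical shared promoters. Of the 17 classical pairs sought, the rule found 7. The other 10, such as Hspd1/Hspe1, did not meet it in this annotation.

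Within each library, the stretch of a divergent pair overlapped a peak more often than the window of a single promoter. The mean over libraries was 84.4% of 754 pairs against 36.5% of 19001 single promoters, a difference of 47.9 ± 4.25 percentage points (SD, n = 12), and pairs were higher in 12 of 12 libraries (two-sided exact sign-flip permutation test, p = 0.000488, the smallest possible, adjusted p = 0.000586 over 6 measures). Most single promoters had no merged region in any library. Among the 698 pairs and 8232 single promoters with a merged region in any library, the shares were 91.2 ± 8.801% and 84.3 ± 9.73%, a difference of 6.94 percentage points (exact sign-flip permutation p = 0.000488).

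Pairs also ranked higher. The strength of a region was the percentile rank of its highest fold enrichment within its own list, over the regions called in all 12 lists, and it cannot tell apart fewer marked cells from less of the mark per cell. The median rank was 68.5 for pairs and 57.6 for single promoters, a difference of 10.8 ± 2.54, again in 12 of 12 libraries (exact sign-flip permutation p = 0.000488). The median number of bp under peaks per region was 2946 for pairs and 2211 for single promoters, a difference of 735 ± 224 bp in 12 of 12 libraries (exact sign-flip permutation p = 0.000488). A pair region has a gene on each side and a single promoter has 1, so these lengths compare 2 gene beginnings with 1. The rank of a pair likewise takes the highest value over 2 gene beginnings. Its merged regions were also wider, at a median of 4384 bp against 3301 bp.

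The strongest peak of a pair lay over one of the genes, not between them. Its summit was outside the stretch in 98.6% of the regions, and past the start in 91.6% of single promoters, a difference of 6.92 ± 1.86 percentage points in 12 of 12 libraries (exact sign-flip permutation p = 0.000488). For a pair either side counts, which makes the criterion easier to meet. This excess was 9.93 ± 0.574 points in scramble and 5.91 ± 0.351 in the other 9 (exact permutation p = 0.00455, adjusted p = 0.0227), and it followed single promoters, which stood at 89.0% and 92.5%, while pairs stood at 99.0% and 98.4%. The median distance from the start to the summit was 338 to 632 bp across libraries for pairs and 355 to 698 bp for single promoters. In 658 regions with 1 pair, the summit was on the same gene in all 12 libraries for 383 (58.2%), on the same gene in 10 or 11 for 148, and less constant in the rest. The minus-strand gene held it more often in 325 regions, the plus-strand gene in 313, with 20 equal.

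Along the genes, the mark formed a pair of shoulders with a dip at the starts. For 1296 genes of pairs, a peak covered the start itself in 70.1 ± 10.4% of the genes in scramble (SD, n = 3) and 89.8 ± 6.04% in the other 9 libraries, and covered the position 250 bp into the gene in 92.8 ± 1.96% and 94.6 ± 1.74%. For 7305 single genes, the start was covered in 61.5 ± 11.1% and 88.9 ± 7.73%. At 1000 bp upstream, inside the partner gene, 89.4 ± 2.41% of pair genes were covered in scramble and 78.9 ± 7.56% in the other 9, against 40.2 ± 7.66% and 20.0 ± 4.88% of single genes. At 2000 bp into the gene, coverage of pair genes was 47.6 ± 8.15% in scramble and 12.6 ± 4.81% in the other 9.

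**Figure D2:**
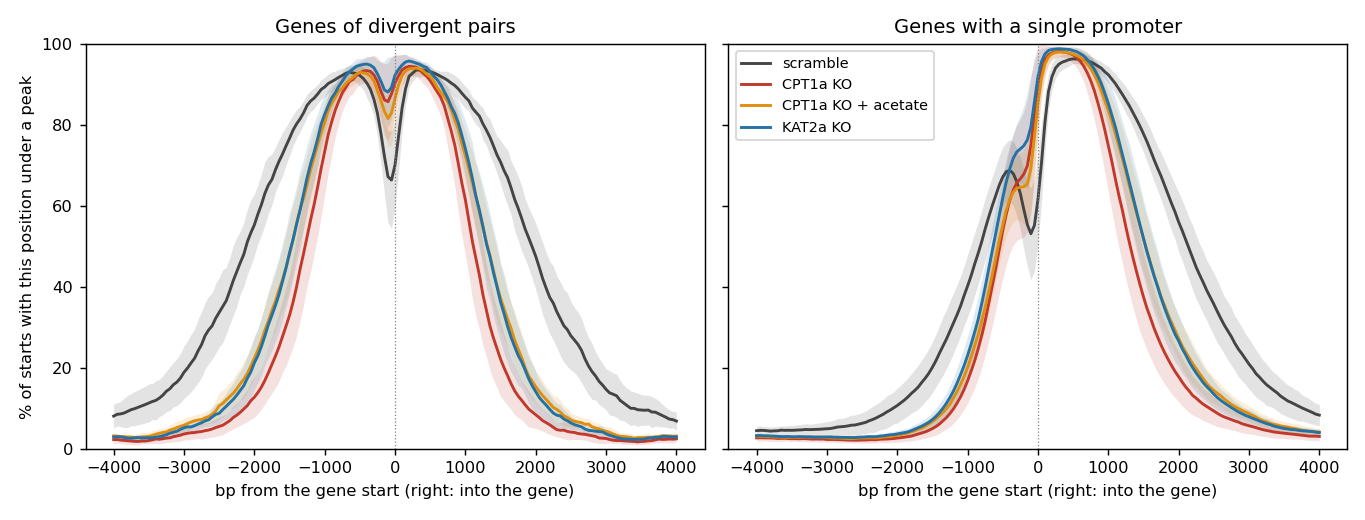
Share of gene starts (%) whose position at a given distance (bp, right is into the gene) lies under a peak, for 1296 genes of divergent pairs and 7305 single genes with a region called in all 12 lists. Lines are means and bands SD over 3 libraries per group. Scramble dips deepest at the start, to 70.1% in pairs, and reaches farthest to both sides.

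The scramble lists left the stretch between the starts uncovered more often. The share of pairs with a peak on the stretch was 81.8, 68.8 and 68.4% in the 3 scramble libraries. It was 91.1, 91.0 and 83.8% in CPT1a KO, 88.5, 82.1 and 88.6% in CPT1a KO+Ac, and 91.0, 91.5 and 86.5% in KAT2a KO. Every scramble value was below every other value, although scramble lists held the most peaks. The means were 73.0 ± 7.62% and 88.2 ± 3.44% (n = 3 and 9), and the 15.2 points between them reached the lowest p that the exact permutation test (two-sided, 220 assignments) allows, 0.00455, with an adjusted p of 0.0227 over 5 comparisons. Each group of 3 against scramble gave an exact permutation p of 0.1, which is the smallest that 3 against 3 allows (adjusted 0.125), with differences of 15.6 points for CPT1a KO, 16.6 for KAT2a KO and 13.4 for CPT1a KO+Ac. CPT1a KO+Ac and CPT1a KO differed by -2.25 points, where the pooled SD was 3.95 (exact permutation p = 0.5).

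Many of these uncovered stretches were gaps between a marked gene on either side. A gap was counted where peaks lay within 1000 bp on both outer sides and none touched the stretch, a measure chosen after the data were seen. There were 67, 142 and 149 gaps in the scramble libraries and 2 to 51 in the others. As a share of the pairs with a covered stretch or peaks on both sides, gaps made up 9.80, 21.5 and 22.4% in scramble. In the other 9 libraries they made up 0.289% at the lowest, 2.34% at the median and 7.61% at the highest, and the groups did not overlap. The difference of -15.1 points had an exact permutation p of 0.00455 (adjusted p = 0.0227). With peaks within 500 bp of each other merged, the difference in covered stretches was 4.27 points (exact permutation p = 0.0136) and that in gaps was -2.69 points (exact permutation p = 0.00455). Peak width and calling depth moved with this result. Median widths were 585 to 686 bp in scramble and 816 to 1147 bp elsewhere. Within scramble, the library with the highest depth, 2.52, had the fewest gaps (9.80%), and those at 1.87 and 1.90 had 21.5 and 22.4%. Among the other 9, those with the lowest depths, 0.554, 0.66 and 1.02, had the most gaps (5.53, 7.61 and 4.68%), and those with the highest, 1.91 and 1.81, had 2.34 and 0.289%. The part of depth and width in the difference between groups was not tested beyond alternative settings. For a setting called equal calling depth below, peaks were dropped whose -log10 p, rescaled to the shallowest list, fell below 5. The gap difference was then -12.8 points (exact permutation p = 0.00909). Kept peaks retained their deposited edges. The lists still ran from 13886 peaks of median width 2330 bp (scramble replicate 1) to 21439 of 874 bp (CPT1a KO+Ac replicate 2). This setting therefore cannot show the gaps that equal depth would give. With all lists shortened to the length of the shortest, the gap difference was -13.2 (exact permutation p = 0.00455).

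Single promoters showed the same order, with gaps in 10.2 ± 3.46% in scramble and 1.35 ± 1.02% elsewhere. The excess of pairs over single promoters was 7.67 ± 3.63 points in scramble and 1.47 ± 1.62 in the other 9, a difference of -6.21 (exact permutation p = 0.0136, adjusted p = 0.0682), and it was 0.893 once peaks within 500 bp were merged. For the covered share, the excess of pairs was 41.7 ± 4.17 points in scramble and 50.01 ± 0.905 elsewhere (exact permutation p = 0.00455, adjusted p = 0.0227). That difference of 8.36 points was 0.646 (exact permutation p = 0.814) when only promoters with a merged region were counted, and -0.767 (exact permutation p = 0.3) with peaks within 500 bp merged. For the covered share, no change particular to divergent pairs was shown.

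**Figure D3:**
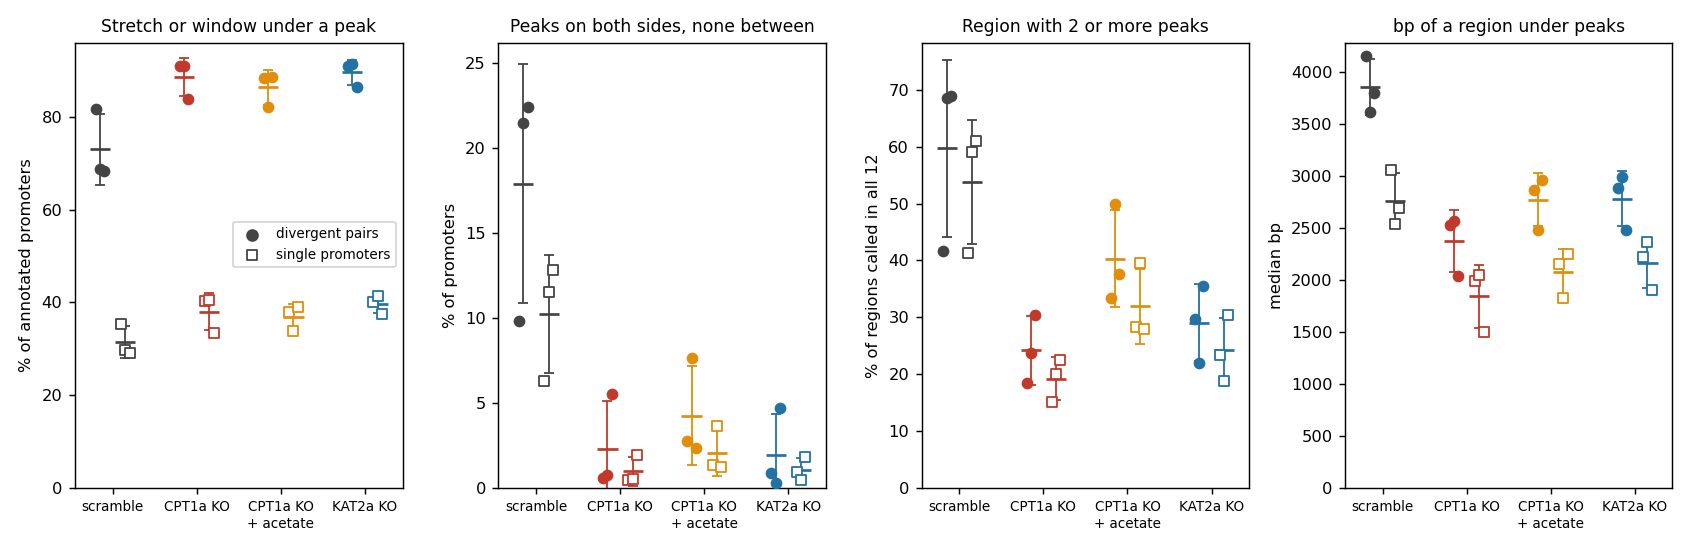
Per-library values of divergent pairs (filled circles) and single promoters (open squares) in 4 groups, with mean and SD of 3 libraries: promoters under a peak (%), promoters with a gap (%), regions with 2 or more peaks (%) and median bp of a region under peaks. Scramble pairs sit lowest in the first panel (68.4 to 81.8%) and highest in the second (9.80 to 22.4%).

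Gaps recurred at the same pairs. Among the 692 pairs with a region in every library, 48 had a gap in 3 of 3 scramble libraries and 114 in at least 2 and 81 had one in any of the other 9 libraries. A pair needs a peak on the stretch in some library to be among them, so none could have a gap throughout. In 13 pairs the gap was present in all scramble libraries and in no other. They include Acad10/Brap, Tada2a/Acaca, Styxl1/Mdh2 with mitochondrial malate dehydrogenase, and Baz2b/March7. Tada2a encodes an adaptor of the complexes that hold KAT2A, and Acaca the cytosolic acetyl-CoA carboxylase. The stretch of Tada2a/Acaca, 71 bases printed above, was a gap in all 3 scramble libraries and in none of the 9 others. Xpc/Lsm3, with the nucleotide excision repair sensor, and Aamp/Pnkd had 3 scramble gaps and 1 elsewhere, and Apaf1/Ikbip had 3 and 2. At the other end, Tada2b/Ccdc96 had gaps in 3 scramble and 6 other libraries, and Ccpg1os/Ccpg1 in 3 and 8. Pairs other than those of the 4 lists below were chosen here after their values were seen.

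In scramble, gaps were about as frequent at all distances up to 250 bp. There, they made up 18.8 ± 8.35% of pairs whose starts lay 1 to 50 bp apart, 20.7 ± 9.28% at 51 to 100 bp, 20.6 ± 7.25% up to 250 bp, 14.5 ± 4.97% up to 500 bp and 0.667 ± 1.15% beyond 500 bp. The other 9 libraries gave 3.74 ± 3.18, 2.14 ± 2.35, 3.78 ± 3.49, 1.87 ± 2.60 and 0.227 ± 0.680%. A long stretch more easily touches a peak, so the last value follows partly from the definition, and the classes were not tested against each other. The longest class held 70 pairs, and a peak touched the stretch in 71.0 ± 1.65% of them in scramble and 73.5 ± 2.59% elsewhere.

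**Figure D4:**
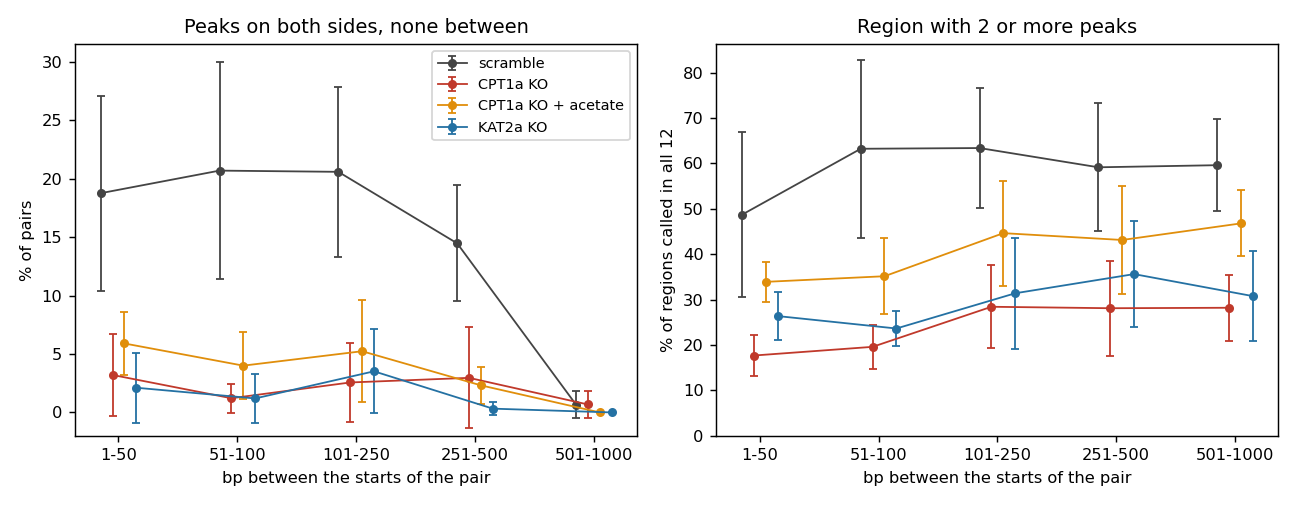
Share of divergent pairs with a gap (%) and share of their regions with 2 or more peaks (%) by the distance between the starts (bp), as mean and SD over 3 libraries per group. Scramble gaps stay between 14.5 and 20.7% up to 500 bp and stand at 0.667% beyond, and the other groups stay at or below 5.91%.

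Regions over pairs were also split more often in scramble. At least 2 peaks lay in 41.7, 68.6 and 68.9% of the 681 regions in scramble, 18.4, 23.8 and 30.4% in CPT1a KO, 33.5, 49.9 and 37.6% in CPT1a KO+Ac, and 29.7, 22.0 and 35.5% in KAT2a KO. Scramble exceeded the other 9 by 28.5 points with an overlap between groups (exact permutation p = 0.00909, adjusted p = 0.0455), and without scramble replicate 3 the difference was -20.0 as other minus scramble (exact permutation p = 0.0727). At equal calling depth it was -15.4 (exact permutation p = 0.136). All CPT1a KO+Ac values were above all CPT1a KO values, a difference of 16.2 points (pooled SD 7.40, exact permutation p = 0.1, the smallest possible). Over all libraries, pairs exceeded single promoters by 6.05 ± 3.08 points in 12 of 12 (exact sign-flip permutation p = 0.000488). This excess was 5.89 ± 4.79 in scramble and 6.11 ± 2.70 in the other 9 (exact permutation p = 0.909), and at equal calling depth the difference, other minus scramble, was -6.26 points (exact permutation p = 0.0364).

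The marked domain of pairs was longer in scramble. Median covered bp were 4149, 3615 and 3798 in scramble, and 2034 at the lowest, 2566 at the median and 2986 at the highest in the other 9 (difference -1211 bp, exact permutation p = 0.00455, adjusted p = 0.0227). The excess of pairs over single promoters was 1094, 1073 and 1106 bp in scramble and 520 to 716 bp in the other 9, again without overlap (difference -475 bp, exact permutation p = 0.00455, adjusted p = 0.0227). As a ratio of pairs to single promoters, scramble gave 1.40 ± 0.0342 and the other 9 gave 1.31 ± 0.0397 (exact permutation p = 0.0136). CPT1a KO+Ac, with an excess of 694 ± 31.2 bp, lay above CPT1a KO with 534 ± 11.8 bp (exact permutation p = 0.1, the smallest possible). These between-group tests of covered length were added after the data were seen.

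Rank differences between groups at pairs were small in the median. The median rank was 70.3 ± 1.35 in scramble and 67.9 ± 1.59 in the other 9, and the groups overlapped (exact permutation p = 0.0273, adjusted p = 0.136). Relative to single promoters, pairs stood 14.0 ± 1.19 ranks higher in scramble and 9.81 ± 1.91 in the other 9 (exact permutation p = 0.0136, adjusted p = 0.0682). With the trend of rank on GC content removed in each library, this difference of -4.16 was -0.422 (exact permutation p = 0.741) and the median of pairs was 1.27 higher in the other 9 (exact permutation p = 0.15). Between CPT1a KO+Ac and CPT1a KO the median rank differed by 1.37 beside a pooled SD of 1.56 (exact permutation p = 0.5).

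Ranks of single regions were compared next. In a separated region all ranks of one group lay above all ranks of the other. Between CPT1a KO and scramble, 80 of 681 pair regions (11.75%) ranked higher in the knockout, where the background over all regions called in 12 lists was 16.7%, and 129 (18.9%) ranked lower, where it was 16.2%. For KAT2a KO against scramble, 81 (11.9%) were higher beside a background of 14.6% and 119 (17.5%) lower beside 15.1%. For CPT1a KO+Ac against scramble, 14.8% were higher beside 15.3% and 122 (17.9%) lower beside 17.0%. For CPT1a KO+Ac against CPT1a KO, 30 (4.41%) were higher beside 5.79% and 43 (6.31%) lower beside 8.51%. These comparisons share their scramble or CPT1a KO libraries.

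Against the other 9 libraries together, 26 pair regions (3.82%) ranked above scramble in every library, beside a background of 5.27%, and 69 (10.1%) ranked below, beside 8.53%. Fewer pair regions than the background ranked higher and more ranked lower, and the same held for each group against scramble. Single promoters lay further from the pairs. For the other 9, 6.24% of their regions ranked higher and 6.80% lower. For CPT1a KO against scramble, 19.6% of single-promoter regions ranked higher and 12.8% lower. KAT2a KO and CPT1a KO+Ac went the same way. These shares were not tested. In either direction together, 95 pair regions (13.95%) were separated, beside 13.8% of all regions. The pairs named below are a description of single members. Base composition moved with the direction. The 69 lower regions had a median GC content of 44.9%, the 26 higher ones 52.3% and the 586 overlapping ones 48.85%, and with the GC trend removed the counts were 25 lower (3.67%, background 5.64%) and 31 higher (4.55%, background 4.73%).

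Among separated pairs, the 5 with the largest rise outside scramble include genes of mitosis and growth signalling. Mad1l1/Nudt1, with a spindle checkpoint protein and a hydrolase of oxidised nucleotides, ranked at 46.9, 47.6 and 81.7 in scramble and from 88.2 through a median of 93.6 to 98.5 in the other 9, a rise of the mean by 35.1 that ran from 16.2, with ranks by -log10 p, to 46.2, without scramble replicate 3, over the alternatives. All 9 libraries outside scramble lay above the highest scramble value. Rps6kb1/Tubd1, with ribosomal S6 kinase and delta tubulin, ranked at 82.2, 47.0 and 66.5 in scramble and from 86.4 through 98.8 to 99.7 elsewhere. Ccni/2010109A12Rik, with cyclin I, ranked at 61.8, 71.3 and 54.1 in scramble and from 91.1 through 94.0 to 96.8 elsewhere. Both sets were separated, by 31.4 ranks for Ccni (26.99 to 39.3 over the alternatives) and 30.9 for Rps6kb1 (21.7 to 42.5). Cc2d1a/4930432K21Rik and Aamp/Pnkd differed by 34.4 (26.1 to 41.1) and 30.4 (17.2 to 34.8), and these were not separated once the GC trend was removed. Aamp/Pnkd was also not separated with peaks within 500 bp merged.

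The separated pairs with the largest falls include genes of ribosome production and of the centrosome. Ptcd3/Polr1a, with a mitochondrial ribosome protein and the largest subunit of RNA polymerase I, ranked at 89.3, 87.8 and 89.9 in scramble and from 35.03 through 54.6 to 59.0 elsewhere. Rnf121/Xndc1, whose region also holds Rnf121/Xntrpc, ranked at 96.5, 95.04 and 89.1 in scramble and from 41.4 through 55.3 to 68.8 elsewhere. Both pairs stayed separated under every alternative tried, with differences of -45.1 to -21.2 and -43.45 to -26.2. They were chosen as separated, and leaving out a library only removes ranks, so those alternatives could hardly undo it. Zfp942/Zfp943 and Cep170/Sdccag8 differed by -36.7 (-41.8 to -15.2) and -36.1 (-40.9 to -22.2) and were not separated once the GC trend was removed.

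Fatty acid oxidation was represented by 9 pairs, all with a region called in every library. Of these, 1 was higher and none lower outside scramble, where the background was 5.27% higher and 8.53% lower. That pair was Acad10/Brap, an acyl-CoA dehydrogenase family member beside a BRCA1-associated protein. It ranked at 38.3, 41.1 and 43.8 in scramble and from 54.9 through 62.3 to 84.2 in the other 9, a rise of 23.8. The pair stayed separated under all alternatives, though leaving out a library could hardly undo a separation. Its stretch of 48 bases was a gap in all scramble libraries and in no other. Hadha/Hadhb ranked at 78.4, 85.6 and 84.4 in scramble and from 40.3 to 86.9 elsewhere, with wide overlap. Crat/Ptpa, with carnitine acetyltransferase, ranked between 82.1 and 96.2 and Pecr/Tmem169, with a peroxisomal enoyl-CoA reductase, between 7.41 and 23.0 in all 12 libraries. The thioesterase pair Acot13/Tdp2 ranked between 68.8 and 87.4. The median difference of the 9 pairs was 2.29 ranks, against -1.01 over all pairs.

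For acetyl-CoA supply, Tada2a/Acaca, Dcaf6/Mpc2 with a subunit of the pyruvate carrier, and Pdhx/Apip with a subunit of pyruvate dehydrogenase had differences of -7.25, -1.94 and -17.9 ranks, and none was separated. Tada2a/Acaca ranked at 82.1, 80.9 and 66.2 in scramble and from 57.5 to 79.3 elsewhere. All 3 of its scramble libraries had the gap, while its ranks overlapped.

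Of 6 NF-kB pathway pairs, 1 was higher and 1 lower outside scramble, beside 5.27% and 8.53% of all regions, and their median difference was 8.67 ranks. Pus7l/Irak4, with the kinase of Toll-like receptor signalling, ranked at 17.6, 20.6 and 25.2 in scramble and from 26.6 through 31.7 to 56.0 in the other 9, a rise of 13.1. Fam3a/Ikbkg, with the regulatory subunit NEMO, ranked at 82.5, 84.7 and 83.3 in scramble and from 24.0 through 61.9 to 77.4, a fall of the mean by 25.2 (-28.6 to -13.6 over the alternatives) that was not separated once the GC trend was removed. Psme2/Rnf31 and Sharpin/Maf1, each with a member of the linear ubiquitin ligase, were higher in all CPT1a KO+Ac than in all CPT1a KO libraries, by means of 76.6 against 64.2 and 55.7 against 42.4. Over all regions, 5.79% ranked higher in that comparison and 8.51% lower. Apaf1/Ikbip and Tradd/Fbxl8 differed from scramble by 15.9 and 10.8 without separation.

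Histone acetylation held 10 pairs. Rad17/Taf9, with a checkpoint clamp loader and a TFIID and SAGA subunit, was the 1 pair lower outside scramble, beside 8.53% of all regions. It ranked at 96.5, 94.1 and 93.5 in scramble and from 38.8 through 79.0 to 90.1 elsewhere, and with a mean of 62.8 in CPT1a KO+Ac it was below the 87.3 of CPT1a KO without overlap. It was not separated from scramble once the GC trend was removed. Tada3/Arpc4 and Taf5l/Urb2, which encode further SAGA subunits, were higher in CPT1a KO+Ac than in CPT1a KO, at 97.6 against 79.4 and 90.7 against 72.5, each without overlap. For CPT1a KO+Ac against CPT1a KO, the background over all regions was 5.79% higher and 8.51% lower. Sirt1/Dnajc12, with the deacetylase SIRT1, was weak throughout (1.19 to 18.4) and lower in CPT1a KO+Ac than in CPT1a KO, at 3.03 against 10.0. Trip13/Brd9, Brd8/Kif20a, Hdac3/Rell2, Sirt6/Ankrd24, Tada2a/Acaca and Tada2b/Ccdc96 were separated in neither comparison.

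**Figure D5:**
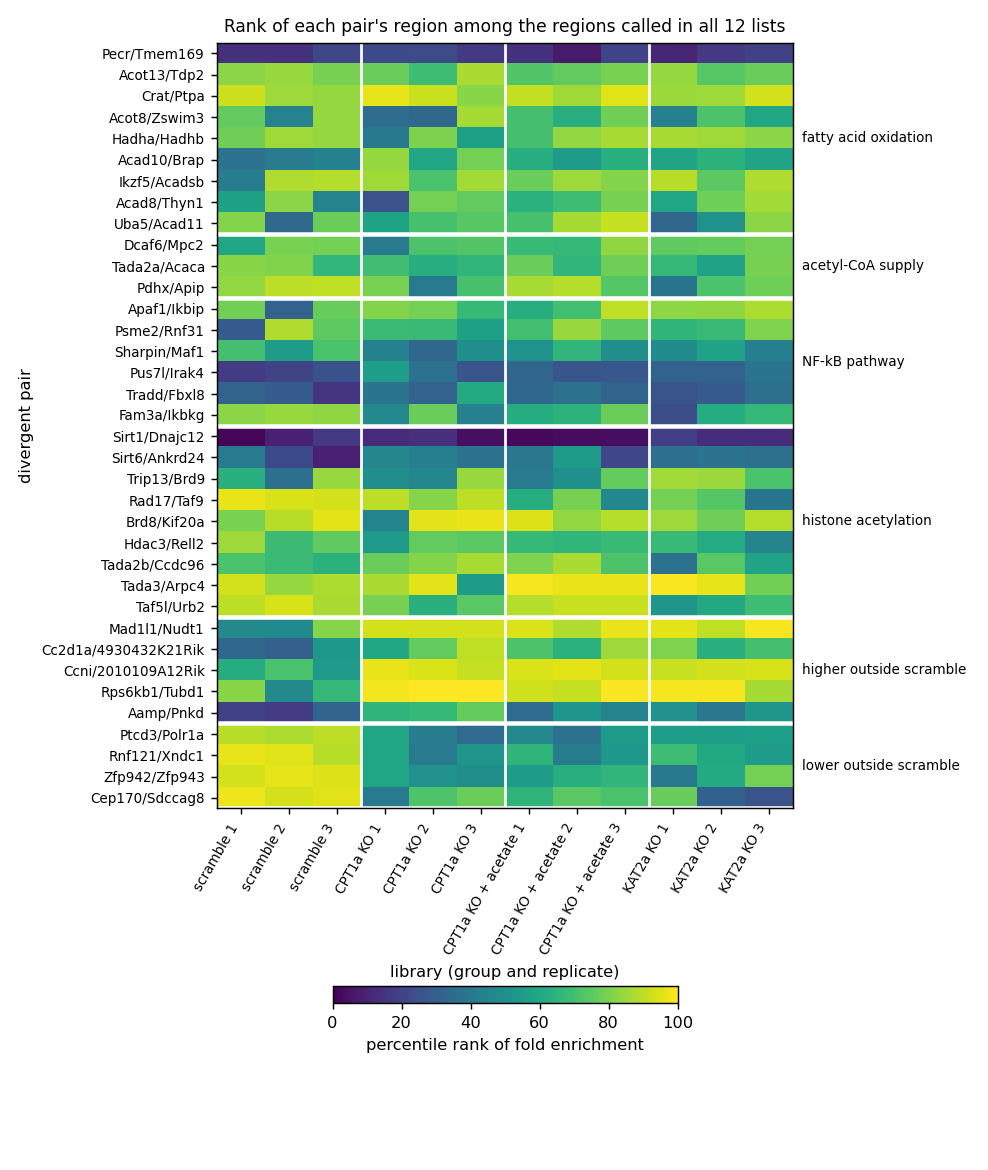
Percentile rank of fold enrichment (0 to 100, dark to light) of the regions of pairs from 4 gene lists and of the 5 separated pairs most above and 4 of those most below scramble, by library. Mad1l1/Nudt1 moves from 46.9 to 81.7 in scramble to 88.2 to 98.5 elsewhere, and Ptcd3/Polr1a from 87.8 to 89.9 to 35.03 to 59.0.

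The larger housekeeping lists were mostly unseparated. DNA repair was the largest, with 49 pairs in 45 regions. Outside scramble 9 of its pairs (18.4%), in 8 regions, were lower and none higher, beside the 10.1% of all pair regions that were lower. The median difference was -9.33 ranks, against -1.01 over all pairs. The lower ones were Osgep/Apex1 with the abasic site endonuclease, Cmc4/Brcc3 and Mtcp1/Brcc3, which share a region, Zfyve26/Rad51b, Rad17/Taf9, Mospd2/Fancb, Recql/Golt1b, Palb2/Dctn5 and Lig4/Abhd13, and were chosen for their values. Osgep/Apex1 ranked at 81.1, 84.1 and 77.8 in scramble and from 36.8 through 51.8 to 61.1 elsewhere. The regions of the list had a median GC content of 45.9%, and with the GC trend removed 1 pair was lower and 2 were higher.

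Replication-dependent histones had 14 pairs. A region was present in every library for 13 of them, and 4 pairs in 3 regions were lower outside scramble, beside 8.53% of all regions. Without scramble replicate 2 the count was 7 pairs, and with ranks by -log10 p it was 6. The median difference was -16.6 ranks. Hist1h2ak/Hist1h2bn ranked at 75.5, 83.8 and 78.6 in scramble and from 36.3 through 46.1 to 69.3 elsewhere. These genes are near-identical copies, so reads may be shared among them, their regions had a median GC content of 43.9%, and none was separated with the GC trend removed. Of 5 pairs with a tRNA synthetase, 3 were lower, among them Orc3/Rars2 and S100pbp/Yars, and the count was 2 with the GC trend removed. The background was 8.53% lower, and the list's median difference was -19.1 ranks. Of 18 pairs with a mitochondrial ribosomal protein, 3 were lower, Mitd1/Mrpl30, Mrpl50/Zfp189 and Ska3/Mrpl57, beside the same background, and the count was 1 with the GC trend removed. The median difference of that list was 5.60 ranks, in the other direction, with 10 of its 18 pairs above 0. These names, too, were chosen for their values. For the remaining lists, the background over all regions was 5.27% higher and 8.53% lower. Of 24 respiratory chain pairs, 1 was higher and none lower. Zinc finger proteins had a region in every library for 22 of 23 pairs, with 1 pair higher and 4 lower, the latter in 3 regions. Replication and cell cycle had 13 pairs with 1 lower. Chaperones had a region in every library for 11 of 12 pairs, with none in either direction. The proteasome had 8 pairs with 1 higher and cytosolic ribosomal proteins 8 with 1 lower. The 5 pairs of mitochondrial import and the 1 of purine and pyrimidine synthesis had none, the 1 of basement membrane collagens had no region, and antigen presentation had no pair.

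Of the 7 classical shared promoters found, 6 had a region in every library, and 5 of these ranked above the median of 68.8 over all pairs. Over all 12 libraries the median rank was 96.4 for Mcm4/Prkdc, 94.7 for Atm/Npat, 91.0 for Brca1/Nbr1, 85.5 for Gart/Son, 83.3 for Hadha/Hadhb and 50.3 for Mrps12/Sars2, and none was separated between scramble and the other 9. The ranges of the first 5 over the libraries overlapped. The highest mean ranks of all pairs were those of Rpl9/Lias, at 98.1 to 99.9 in all 12 libraries, Dnajb4/Fubp1 at 83.9 to 99.9 and Bola1/Hist2h2ab, in 1 region with Hist2h2ac/Hist2h2be, at 84.9 to 99.2. The lowest were those of Ifit1bl2/Ifit1 (0.203 to 9.17), Nrg4/Tmem266 (0.0744 to 9.72) and Sirt1/Dnajc12.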

How the data were processed

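H3K9ac ChIPmentation lists of 12 libraries were analysed, 3 for each of 4 groups assigned from the labels. The 12 input libraries were not analysed here, and the Drosophila spike-in of the study's methods was not used. Per the labels, the authors' tools were FastQC, Bowtie2, SAMtools, deepTools and MACS2 with the builds mm10 and dm6, while the study's methods name BWA as the aligner. The antibody's catalogue number also differs between the labels and the methods. Peaks were called by the authors on each library alone. The deposited fold enrichment is a ratio of pileup to local background at the summit, -log10 p and -log10 q are deposited for each peak as its own library gave them (smallest -log10 q 2.00052), and the deposited score of the peaks was not used further. None of these values was scaled between libraries by the authors, so they were only ranked within a library.

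Gene starts were those of GENCODE vM21 and sequence that of GRCm38. Peaks on chromosomes 1 to 19 and X were merged (1 bp overlap), and a region's rank was the percentile of its highest fold enrichment among regions called in all 12 lists. A single promoter was the window from 250 bp upstream to the start. Pairs and single promoters were compared within libraries by an exact sign-flip test (4096 sign assignments), and groups by exact permutation tests (20 or 220 assignments), with Benjamini-Hochberg adjustment over 5 comparisons or 6 measures. Counts of separated regions have no test. Alternatives were a -log10 q of at least 5, lists of equal length, peaks within 500 bp merged, starts within 500 bp, a single window of 1000 bp, most of the stretch covered, the start base alone, ranks by -log10 p, ranks less their median within 50 bins of GC content, a replicate block and leaving out each library. The gap measure, the group comparisons of covered length and of summit position, the restriction to promoters with a region, the ratio of covered lengths and the equal calling depth were added after the data were seen. For the latter, pileup and background were solved from fold enrichment and p for peaks with a -log10 p under 60, scaled to the shallowest list, and peaks still at a -log10 p of 5 were kept. Peaks at 60 or above were all kept, and kept peaks retained their deposited edges.

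Pairs were named if they are classical shared promoters, held a gene of the fatty acid oxidation, acetyl-CoA supply, NF-kB or histone acetylation lists, were among the 5 separated regions with the largest rise or fall, had the 3 highest or lowest mean ranks, or were called almost only in or outside scramble. Some of the pairs that these rules name are not reported here. The members, lists and rules were chosen with earlier results of these data known. The steps were tested on simulated data with known answers. Same-numbered replicates of different groups were not paired: correlations of their deviations ranged from -0.0543 to 0.0783 over 18 library pairs. Python 3.11.15, numpy 2.4.6, scipy 1.17.1, pandas 2.3.3, pysam 0.24.0 and matplotlib 3.10.9 were used.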

Additional observations from a re-analysis of the deposited data

Results flagged for a closer look

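The excess of divergent pairs over single promoters differed between the other 9 libraries and scramble in 5 measures by the exact permutation test of that difference. As other minus scramble it was 8.36 percentage points for promoters under a peak (p = 0.00455), -4.16 for the median rank (p = 0.0136), -6.21 points for gaps (p = 0.0136), -475 bp for the median covered length (p = 0.00455) and -4.01 points for summits outside the stretch or window (p = 0.00455), all by exact permutation. Calling depth (1.87 to 2.52 against 0.554 to 1.91) and peak width moved with the groups, and the first 3 measures changed direction or lost the threshold under an alternative given below. No library outside scramble stood apart from the other 8 by Dixon's criterion in any of 12 measures.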

How the results depend on the processing

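Over 53 results, 1063 alternatives were computed. Peak lists give no signal below their threshold, so an unmarked stretch may hold signal under it, and comparisons of 3 against 3 libraries cannot pass the threshold by exact permutation. With peaks within 500 bp merged, the pair excess under a peak was -0.611 (CPT1a KO), -1.38 (KAT2a KO), -0.308 (CPT1a KO+Ac) and -0.767 (other 9) against scramble and 0.303 for CPT1a KO+Ac against CPT1a KO, the gap excess was -0.357 within libraries, 0.893 for the other 9 and -0.213 for CPT1a KO+Ac against CPT1a KO (pairs alone -0.00263), and the excess of regions with 2 or more peaks was -0.143 for the other 9. That excess was also -1.92 with a -log10 q of at least 5, -5.44 with lists of equal length, -6.26 at equal calling depth and -0.118 with starts within 500 bp. For CPT1a KO+Ac against scramble it was -3.65 with lists of equal length and -4.11 at equal depth, where pairs alone gave -15.4 for the other 9. With the GC trend removed, median ranks of pairs differed from scramble by 1.10 (CPT1a KO), 0.911 (KAT2a KO), 1.78 (CPT1a KO+Ac) and 1.27 (other 9), the excess by 0.245 for CPT1a KO+Ac and -0.422 for the other 9, and 56 pair regions were separated for the other 9, against 95, or 165 when ranked by -log10 p. With only promoters that have a region, the excess under a peak was -1.25 (KAT2a KO), 0.646 (other 9) and 0.144 (CPT1a KO+Ac against CPT1a KO). The cause of these changes was not tested.

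Leaving out each library, other 9 minus scramble ran from -3.33 to -1.997 for the median rank of pairs and -4.92 to -3.53 for its excess, -30.9 to -20.0 for regions with 2 or more peaks and -0.834 to 3.28 for their excess, and -8.30 to -5.07 for the gap excess. The excess of regions with 2 or more peaks ran from -2.65 to 2.20 for CPT1a KO and -1.94 to 1.92 for KAT2a KO against scramble, and the gap excess from -0.0266 to 2.00 for CPT1a KO+Ac against CPT1a KO. Separated pair regions ran from 97 to 150 for the other 9, the highest without scramble replicate 2, and from 72 to 164 for CPT1a KO+Ac against CPT1a KO, where each of these 6 libraries left out gave at least 133. The exact permutation p rose above 0.05 without scramble replicate 2 or 3 for the excess in rank and in gaps (0.0545 each), without either of them, CPT1a KO replicate 1 or 2 or CPT1a KO+Ac replicate 1 for the median rank, and without scramble replicate 3 for regions with 2 or more peaks. The replicate numbers do not pair the libraries, and the replicate block changed no call: the share of pairs under a peak differed by 15.2 points in the other 9 (exact permutation p = 0.0156). All 14 pairs followed kept their direction under every alternative, and the 6 named in the report as tied to the GC trend lost their separation there. Aamp/Pnkd lost it also with peaks within 500 bp merged. Leaving out a library only removes ranks and could hardly undo a separation.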
